A study of Mus musculus with 16 samples.

Results

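TUBO cells treated with an inhibitor of miR-135b were compared between 24 and 72 h after transfection. The members were the samples titled as anti-miR-135b at these times, 5 of the 16 samples of the series, with 2 at 24 h (samples 11 and 12) and 3 at 72 h (samples 16, 17 and 18). TUBO cells were established from a mammary carcinoma of the BALB-neuT mouse, in which an activated form of rat neu (ErbB2) is expressed as a transgene, and all groups are this line, plated near confluence before transfection. Each sample received 200 nM of a miRIDIAN hairpin inhibitor with Lipofectamine, either against miR-135b or a negative control hairpin labelled scrambled, and its RNA was read on 1 Illumina mouse array. The study followed both arms to 24, 48 and 72 h, to find transcripts that change when miR-135b is inhibited. There was no untreated or untransfected group. For values side by side, the controls at 24 h (2 samples) and 48 h (3 samples), which share no sample with the main comparison, and the controls at 72 h (3 samples) were used.

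A hairpin inhibitor is a chemically modified RNA that binds a mature miRNA and keeps it from its target transcripts. Programmes by which cells in culture are known to respond to their surroundings include the integrated stress response, in which the factor ATF4 drives genes of amino acid supply, and the antioxidant response driven by NRF2. Others are cholesterol synthesis under the SREBP factors, the interferon response to foreign nucleic acid, and the response to low oxygen under HIF1. The genes below are ordered by these programmes.

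All 5 samples and the 72 h controls lay on the second of 2 chips, and the 24 and 48 h controls lay on the first, so each time comparison was made within 1 chip. On both chips the 24 h samples took the last positions, so array position and time cannot be told apart. Median raw intensities were 346.8 and 311.9 at 24 h and 296.3, 327.4 and 305.8 at 72 h. Over all 16 arrays they ranged from 281.2 to 346.8, sample 11 having the highest. Over the probes tested, the normalized values of the 24 h arrays correlated at 0.973, those of the 72 h arrays at 0.946 to 0.972, and arrays of different times at 0.882 to 0.941. The label of a mammary epithelial line was borne out by its markers: Krt8 and Krt18 averaged 13.77 and 13.48 (normalized log2 intensity), and Cdh1 averaged 11.71. Of 14 leukocyte markers with a probe, only Cd14 was bright enough to be tested, with a mean of 14.51. Of 7 basal or myoepithelial markers 3 were tested, of 17 fibroblast and endothelial markers 4 and of 9 adipocyte markers 4. The brightest of each averaged 7.47 (Krt14), 9.94 (Flt1) and 11.29 (Pnpla2). No marker of these cell types or of leukocytes passed the test between the times. The labels do not say whether replicates came from separate cultures, so p-values measure the spread between these samples.

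Between 24 and 72 h under anti-miR-135b, 12 of 28 measured genes of the ATF4 list fell, as did 9 of 20 antioxidant, 9 of 19 cholesterol, 11 of 31 interferon and 13 of 29 ribosome biogenesis genes. Rises were called for 7 of 19 targets of the low oxygen response, 5 of 17 glycolytic genes and 13 of 59 respiratory chain subunits. Leaving out sample 12 lowered the count in each of these lists, of falls as well as of rises, as given with each list below. Of 12848 probes tested, 540 rose (4.2%) and 485 fell (3.77%) at an adjusted p under 0.05 in limma. Counting only the brightest probe of each of 9032 genes, 410 rose (4.54%) and 346 fell (3.83%). These shares are the background for every list below, and the median difference over all genes was 0.03. The lists share some called members, so their counts are not separate. For example, Slc7a11 is in the ATF4 and antioxidant lists, and Mxi1 in the ribosome biogenesis and low oxygen lists. The median size of a called difference was 1.12 on the log2 scale (2.17-fold), and 316 probes rose and 334 fell by more than 1 log2 unit. In all 1025 called probes the samples of the times did not overlap, which adds no support to the calls, since the same values gave both. The calls rested heavily on the pair at 24 h: without sample 12 only 25 probes passed, 12 higher and 13 lower, where the remaining 24 h sample is assumed to vary like the other groups. Without samples 11, 16, 17 and 18 in turn, 474, 441, 677 and 665 probes passed. With all samples kept, median scaling called 377 probes and array weights 2178. Of 128 called probes of genes chosen by the naming rule, 13 passed without sample 12, and 0 changed sign in any setting run. In RNA from whole cultures, fewer cells of a state and less RNA per cell cannot be told apart.

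In the control from 24 to 48 h, 119 probes passed, and over the brightest probe per gene 53 rose (0.587%) and 38 fell (0.421%). At an unadjusted p under 0.05 in limma, 1593 of 12848 probes differed in the control and 2965 under anti-miR-135b. These are the background for the unadjusted counts of each comparison below. Of the 1025 probes called under anti-miR-135b, 885 (86.3%) had the same sign in the control comparison, against 62.6% of all probes. Between the calls of both comparisons, 57 probes were shared, all in the same direction, which is 5.56% of the anti-miR-135b calls and 47.9% of the control calls. The control comparison spans a shorter interval on the other chip. The control count moved with single samples, to 23, 19, 33 and 77 without control samples 2, 3, 5 and 6. It moved more with the scaling: median scaling in place of quantile normalization shifted the control's median over all probes from 0.02 to 0.32 and called 1267 probes, 98.1% of them higher against 52.9%, so control differences below are relative to the quantile-normalized median.

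**Figure D1:**
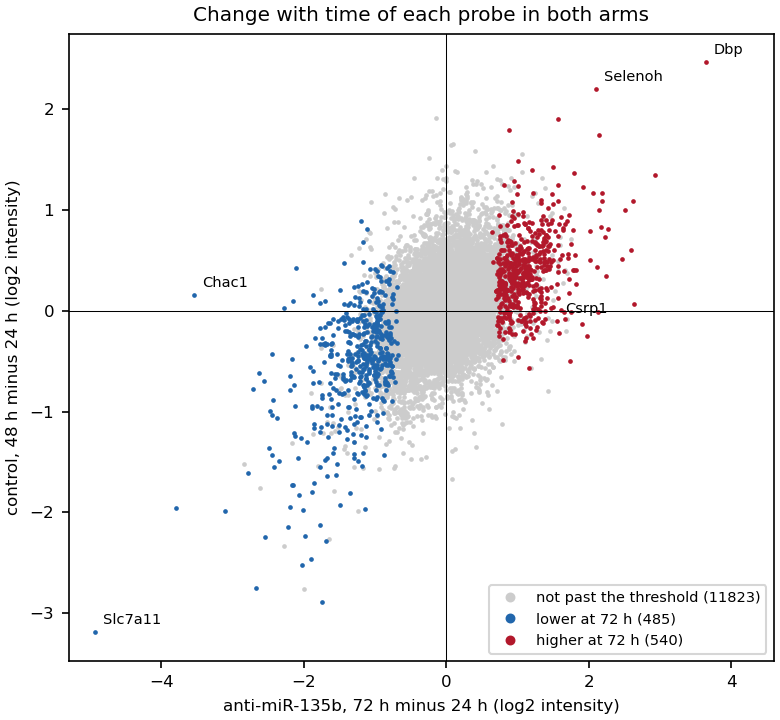
Difference from 24 to 72 h under anti-miR-135b (x axis) against the difference from 24 to 48 h in the control (y axis), both in log2 intensity, with 1 point for each of 12848 probes. The 485 probes that fell are blue and the 540 that rose are red; Slc7a11 lies far down on both axes and Dbp far up on both, while Chac1 lies far to the left at a control difference of 0.16.

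Among named genes the largest fall was that of Slc7a11, the cystine importer subunit that supplies glutathione synthesis. It measured 12.16 and 12.79 at 24 h and 7.54, 7.69 and 7.38 at 72 h (normalized log2 intensity), a difference of -4.94 (SE 0.45, limma adjusted p = 3.5e-05), or 30.6-fold lower. The 72 h samples lay well below both 24 h samples. The 72 h controls, at 7.65, 7.27 and 7.38, overlapped the anti-miR-135b samples of that time. The next was that of Chac1, an enzyme that degrades glutathione and a target of ATF4, which measured 12.34 and 12.56 at 24 h and 9.19, 8.94 and 8.60 at 72 h. Its difference was -3.54 (SE 0.39, limma adjusted p = 0.00012), or 11.7-fold, and its groups lay far apart. In the control, Chac1 measured 11.11 and 10.44 at 24 h and 11.04, 11.12 and 10.65 at 48 h, so that both times overlapped.

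Other large falls were those of Cxcl2, a chemokine that attracts neutrophils (-3.10, SE 0.58, limma adjusted p = 0.0044), and Rab32, a small GTPase of organelle traffic (-2.71, SE 0.73, limma adjusted p = 0.029). Gvin1, a large interferon-induced GTPase, differed by -2.63 (SE 0.68, limma adjusted p = 0.025). For Tpm3, a tropomyosin of the actin cytoskeleton, the brighter probe differed by -2.78 (SE 0.56, limma adjusted p = 0.0062), but its other probe had a difference of 0.20 that did not pass. Psmd7, a subunit of the proteasome lid, had -2.56 (SE 0.41, limma adjusted p = 0.002) by its dimmer probe, while the brighter probe differed by -0.71 and did not pass.

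Among the transcripts that rose, Dbp stood first. It encodes a transcription factor of circadian clock output and measured 9.20 and 8.19 at 24 h and 12.99, 12.39 and 11.62 at 72 h, a difference of 3.64 (SE 0.55, limma adjusted p = 0.0014), or 12.5-fold. Its 72 h controls, at 13.42, 13.10 and 11.66, overlapped the inhibitor samples of that time. Adssl1, the muscle form of an enzyme of adenine nucleotide synthesis, rose by 2.63 (SE 0.67) and Mb, which encodes myoglobin, by 2.24 (SE 0.54), with limma adjusted p = 0.022 and 0.017. The remaining large rises included Fam162a, a mitochondrial protein induced by low oxygen in human cells (2.19, SE 0.41), Add3, a spectrin-binding adducin (2.17, SE 0.55), and Ypel3 (2.13, SE 0.40). Chst1, a sulfotransferase of keratan sulfate, rose by 2.15 (SE 0.24), with 24 h values of 8.02 and 7.94 and the lowest 72 h value at 9.88. Mfsd13a, a member of a transporter family, rose by 2.23 (SE 0.40).

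**Figure D2:**
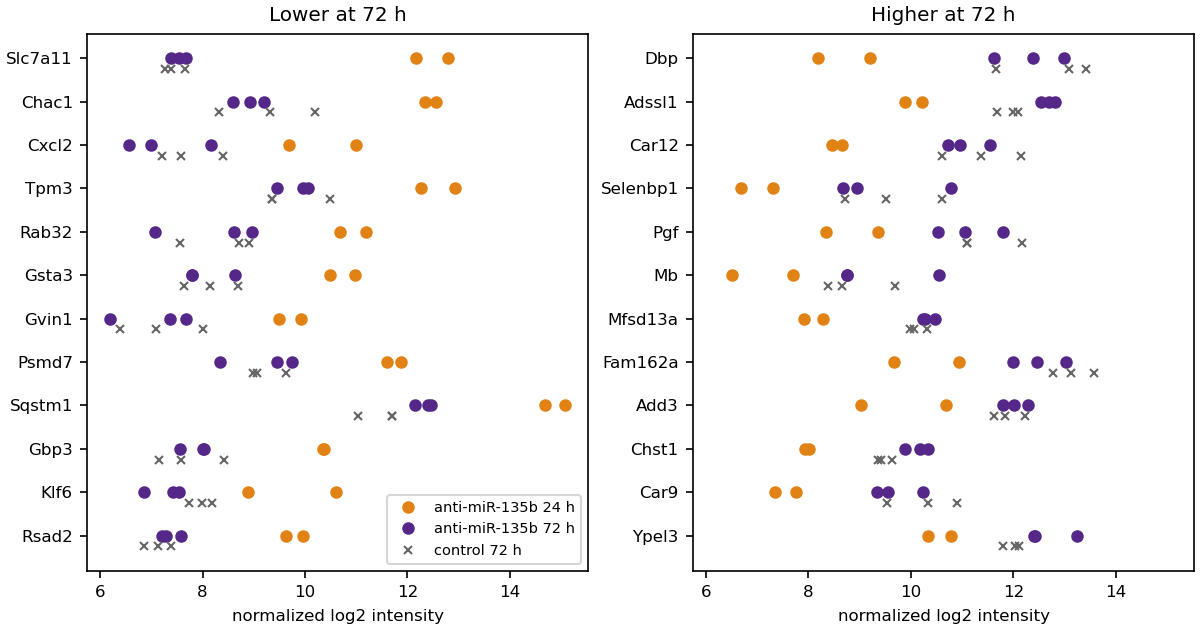
Normalized log2 intensity (x axis) of the 12 genes with the largest fall (left) and the 12 with the largest rise (right), with 1 point for each anti-miR-135b sample at 24 h (orange) and 72 h (purple) and a cross for each control sample at 72 h. The 24 genes were chosen among called probes whose orange and purple points do not overlap. The crosses lie near the purple points.

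Genes that ATF4 drives, with the amino acid transporters and enzymes around them, formed the list that holds both of the largest falls. Of the 28 measured genes of this list, 12 fell, 0 rose and 16 did not pass the test, with a median difference of -0.61 over the list. With samples 11, 12, 16, 17 and 18 left out in turn, there were 7, 3, 12, 11 and 11 falls. Beside Slc7a11 and Chac1, Slc7a5, the large neutral amino acid transporter, measured 13.62 and 13.39 at 24 h and 10.44, 11.92 and 11.81 at 72 h, a difference of -2.11 (SE 0.43, limma adjusted p = 0.0071). Its partner subunit Slc3a2 fell by 1.44 (SE 0.24), the glutamine transporter Slc38a2 by 1.51 (SE 0.31) and the glycine transporter Slc6a9 by 1.23 (SE 0.27). These transporters thus fell together. The factors of the pathway fell too, with Atf4 itself at -1.35 (SE 0.27, limma adjusted p = 0.006), Atf5 at -1.77 (SE 0.40, limma adjusted p = 0.012) and Atf3 at -1.65 (SE 0.22, limma adjusted p = 0.00073). Ppp1r15a, which encodes the phosphatase subunit that ends the stress response, differed by -2.06 (SE 0.33, limma adjusted p = 0.0021). The mitochondrial folate enzymes Mthfd2 and Shmt2 fell by 1.11 (SE 0.32) and 1.04 (SE 0.21). Not every target passed the test. Asns, the asparagine synthetase, differed by -1.12 (SE 0.34, limma adjusted p = 0.052), a size like that of Mthfd2, and missed the threshold narrowly. Trib3 differed by -0.43 (SE 0.34, limma adjusted p = 0.5) and Ddit3, which encodes CHOP, by -0.43 (SE 0.38, limma adjusted p = 0.56), and these did not pass either.

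The cytosolic aminoacyl-tRNA synthetases, which charge tRNAs and are in part ATF4 targets, had a like pattern. Of the 16 measured synthetase genes, 5 fell, 0 rose and 11 did not pass the test, with a median difference of -0.59 over the list. When samples 11, 12, 16, 17 and 18 were left out in turn, 3, 0, 3, 4 and 4 falls were called. Rars measured 10.57 and 11.10 at 24 h and 8.79, 8.92 and 9.50 at 72 h, a difference of -1.77 (SE 0.33, limma adjusted p = 0.0044). Wars fell by 1.47, Eprs by 1.23, Gars by 1.19 and Aars by 1.17 (SE 0.31, 0.35, 0.24 and 0.29). Of the ATF4 list 2 fell and 0 rose from 24 to 48 h in the control, with a median of 0.15, and 13 of 28 had an unadjusted p under 0.05 in limma. Of the synthetases 0 fell and 0 rose from 24 to 48 h in the control, with a median of 0.23, and 3 of 16 had an unadjusted p under 0.05. The control calls were Slc7a11 (-3.19) and Ppp1r15a (-1.82), whereas Slc7a5 differed by 0.43 and Gars by 0.89 there without passing. At 72 h the controls overlapped the inhibitor samples, with Slc7a5 at 10.89, 12.10 and 11.71.

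The promoters of the genes with the largest falls are shown because they hold the response element core that ATF4 and C/EBP factors bind. Sequences are from RefSeq on GRCm38.p6, 250 bases before to 50 after the start, in the direction of the gene, with matches on either strand to TGATGNAA in capitals. The window of Slc7a11 is chr3:50443564-50443863, minus strand, with matches 66 and 47 bases before the start, and that of Chac1 is chr2:119350992-119351291, plus strand, with a match 193 bases before it. The core was found in 3 of the 11 fallen members with a promoter sequence (27.3%), in 8 of the 27 measured members with a promoter sequence (29.6%) and in 4.07% of all 27025 promoters.
Slc7a11 promoter: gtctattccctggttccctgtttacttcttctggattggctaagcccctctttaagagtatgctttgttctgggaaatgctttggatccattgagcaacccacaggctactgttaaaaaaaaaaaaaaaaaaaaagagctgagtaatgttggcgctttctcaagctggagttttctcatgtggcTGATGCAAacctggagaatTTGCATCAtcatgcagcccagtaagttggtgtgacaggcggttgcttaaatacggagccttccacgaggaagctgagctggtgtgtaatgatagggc
Chac1 promoter: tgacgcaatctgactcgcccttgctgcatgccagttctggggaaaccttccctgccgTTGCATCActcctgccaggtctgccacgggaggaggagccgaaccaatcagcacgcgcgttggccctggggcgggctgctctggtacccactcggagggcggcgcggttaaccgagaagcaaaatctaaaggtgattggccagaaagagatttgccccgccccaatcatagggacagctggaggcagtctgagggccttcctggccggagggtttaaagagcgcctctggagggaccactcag

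Some genes of the NRF2 response fell, among them those for glutathione synthesis and thioredoxin reduction. Of the 20 measured genes of this list, 9 fell, 0 rose and 11 did not pass the test, with a median difference of -0.74 over the list. Leaving out samples 11, 12, 16, 17 and 18 in turn gave 8, 3, 8, 8 and 9 falls. Gclm, the modifier subunit of the enzyme that limits glutathione synthesis, measured 11.13 and 11.37 at 24 h and 9.01, 9.00 and 8.63 at 72 h, a difference of -2.37 (SE 0.24, limma adjusted p = 8.7e-05). Both 24 h samples lay well above the 72 h samples. The catalytic subunit Gclc fell by 1.16 (SE 0.23). Sqstm1, the autophagy receptor p62, measured 14.68 and 15.08 at 24 h and 12.15, 12.46 and 12.40 at 72 h, a difference of -2.54 (SE 0.35, limma adjusted p = 0.00075). Its 72 h controls measured 11.04, 11.70 and 11.70, below the inhibitor samples. Hmox1, heme oxygenase, fell by 2.44 (SE 0.37), Txnrd1, thioredoxin reductase, by 1.59 (SE 0.24), Srxn1, sulfiredoxin, by 1.24 (SE 0.26) and Taldo1, of the pentose phosphate pathway, by 0.81 (SE 0.22). In this list 6 fell and 0 rose from 24 to 48 h in the control, with a median of -0.75. The difference between the changes of the arms had an unadjusted p under 0.05 in limma for 5 of 20 members, against 9.44% of all genes. From 24 to 48 h in the control, Gclm differed by -1.07, Sqstm1 by -2.25 and Txnrd1 by -1.41, each past the threshold.

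The Gclm promoter (chr3:122245307-122245606, plus strand, RefSeq, GRCm38.p6) is shown because it holds the core of the element that NRF2 binds, TGACNNNGC on either strand, 134 bases before the start, in capitals. This core was in 2 of the 7 fallen members with a promoter sequence, in 4 of the 17 measured members with a promoter sequence (23.5%) and in 12.4% of all promoters.
Gclm promoter: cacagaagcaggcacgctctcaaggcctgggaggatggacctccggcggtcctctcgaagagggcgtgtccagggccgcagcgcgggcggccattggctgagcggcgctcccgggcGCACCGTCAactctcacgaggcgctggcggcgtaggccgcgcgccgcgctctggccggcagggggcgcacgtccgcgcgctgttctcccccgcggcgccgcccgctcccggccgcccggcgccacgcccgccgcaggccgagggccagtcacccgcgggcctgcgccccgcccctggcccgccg

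Glutathione transferases, which join glutathione to foreign compounds, changed in both directions. Of the 16 measured, 3 fell and 4 rose, against 2 and 1 without sample 12. The alpha and pi forms fell, with Gsta3 at -2.66 (SE 0.30, limma adjusted p = 0.00012), Gstp1 at -2.03 (SE 0.34) and Gsta1 at -1.87 (SE 0.22). Gstp1 has near-identical copies whose transcripts the array may not separate. The theta form Gstt1 measured 8.38 and 8.08 at 24 h and 10.11, 9.96 and 10.09 at 72 h, a difference of 1.82 (SE 0.21, limma adjusted p = 0.00013). Also rising were Mgst3 (1.38), Gstm4 (1.17) and Gstt3 (0.90). Of 17 selenoproteins, 3 fell and 5 rose, and 0 to 3 fell and 1 to 3 rose when single samples were left out. Among them the glutathione peroxidase Gpx2 fell by 2.22 (SE 0.39). Selenoh, a nuclear selenoprotein, rose by 2.10 (SE 0.24), Msrb1, which reduces oxidized methionine, by 1.90 (SE 0.37), and Gpx4, which reduces lipid peroxides, by 0.80 (SE 0.23). In the control, Selenoh differed by 2.20 and passed, and Msrb1 by -0.13 and did not.

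Some genes of cholesterol synthesis fell. Of the 19 measured genes of synthesis and uptake, 9 fell, 0 rose and 10 did not pass the test, with a median difference of -1.13 over the list. The falls numbered 7, 2, 8, 10 and 9 with samples 11, 12, 16, 17 and 18 left out in turn. Hmgcs1, which makes the precursor of mevalonate, measured 14.98 and 14.13 at 24 h and 11.84, 12.31 and 12.93 at 72 h, a difference of -2.19 (SE 0.37, limma adjusted p = 0.0028). The 72 h samples lay below both 24 h samples, as did the 72 h controls at 12.23, 12.77 and 13.14. Later steps fell by similar amounts, with Mvd and Idi1 of isoprenoid synthesis at -1.69 (SE 0.29) and -1.77 (SE 0.34). Sqle and Lss, which make and close squalene epoxide, differed by -1.29 (SE 0.25) and -1.39 (SE 0.29). The demethylation steps Cyp51, Msmo1, Nsdhl and Hsd17b7 lay between -1.98 and -1.55. The control had the same 9 genes called from 24 to 48 h, and its median was -1.12. Of fatty acid genes, Acly, which makes cytosolic acetyl-CoA, fell by 1.30 (SE 0.31) and the elongase Elovl6 by 1.21 (SE 0.32). The desaturase Scd1 rose by 1.18 (SE 0.23), and the other 17 of 20 did not pass.

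The Hmgcs1 promoter (chr13:119690101-119690400, plus strand, RefSeq, GRCm38.p6) is shown for its match to the sterol regulatory element TCACNCCAC, searched on both strands, 137 bases before the start, in capitals. It was the only match among the 8 fallen members with a promoter sequence. The element was in 1 of the 15 measured members with a promoter sequence (6.67%), and 1.22% of all promoters held the element.
Hmgcs1 promoter: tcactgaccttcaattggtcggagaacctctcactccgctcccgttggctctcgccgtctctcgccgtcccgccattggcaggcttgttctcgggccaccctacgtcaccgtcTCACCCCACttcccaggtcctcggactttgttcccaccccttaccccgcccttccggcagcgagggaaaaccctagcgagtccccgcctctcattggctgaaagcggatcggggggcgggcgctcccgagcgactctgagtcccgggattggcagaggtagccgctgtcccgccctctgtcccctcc

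Some interferon-stimulated genes fell. Of the 31 measured genes of this list, 11 fell, 0 rose and 20 did not pass the test, with a median difference of -1.01 over the list. With samples 11, 12, 16, 17 and 18 left out in turn, there were 6, 0, 5, 8 and 9 falls. Rsad2, which encodes the antiviral enzyme viperin, measured 9.64 and 9.97 at 24 h and 7.29, 7.21 and 7.57 at 72 h, a difference of -2.45 (SE 0.49, limma adjusted p = 0.0062). Eif2ak2, the kinase PKR that is activated by double-stranded RNA, measured 11.13 and 11.50 at 24 h and 8.81, 8.85 and 9.69 at 72 h, a difference of -2.20 (SE 0.42, limma adjusted p = 0.0049). In both genes the 24 h samples lay above every 72 h sample. The guanylate-binding protein Gbp3 fell by 2.49 (SE 0.49) and the chemokine Cxcl10 by 1.61 (SE 0.32). Sensors and effectors further down were Ddx58, the RNA sensor RIG-I (-1.30), Oasl1 (-1.45), Oas2 (-1.04), Mx2 (-1.23), Ifi35 (-1.33), Ifit3 (-0.98) and Ifit2 (-0.83), all past the threshold. From 24 to 48 h in the control, Ddx58 alone passed (-1.46), and the median was -0.43. Of 20 NF-kB targets, cytokines and chemokines, Cxcl2 and Ccl2 (-1.76, SE 0.38) fell. Of 14 MHC class I genes, H2-T23 rose by 1.09 (SE 0.25) and H2-Q7 by 0.88 (SE 0.22), and the other 12 did not pass. The median of this list was 0.06, with 9 differences positive and 5 negative. Without sample 16, and also with median scaling, 0 of its members were called. H2 genes are similar in sequence, so a probe may read several of them.

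Myc and the genes that build ribosomes in the nucleolus formed the list with the most falls. Of the 29 measured genes of this list, 13 fell, 1 rose and 15 did not pass the test, with a median difference of -0.89 over the list. When samples 11, 12, 16, 17 and 18 were left out in turn, 7, 0, 5, 6 and 9 falls were called. The member that rose was Mxi1, which encodes an antagonist of Myc (1.64, SE 0.38). Ncl, nucleolin, measured 10.52 and 10.55 at 24 h and 8.27, 8.35 and 8.14 at 72 h, a difference of -2.28 (SE 0.42, limma adjusted p = 0.0039). Rrp12, needed for export of ribosomal subunits, measured 10.82 and 11.15 at 24 h and 8.52, 8.72 and 8.38 at 72 h, a difference of -2.44 (SE 0.42, limma adjusted p = 0.0029). Both were lower in each 72 h sample than in either 24 h sample. The box C/D snoRNP proteins Nop58, Nop56 and Fbl fell by 1.87, 1.59 and 1.17 (SE 0.47, 0.38 and 0.30). The H/ACA protein Nhp2 fell by 1.70 (SE 0.33) and the nucleolar helicase Ddx21 by 2.20 (SE 0.53). Myc itself differed by -0.95 (SE 0.24, limma adjusted p = 0.023). In the control none of the 29 passed in limma (4 at an unadjusted p under 0.05) and the median was -0.01, with Ncl at 0.03 and Nop58 at 0.15. That comparison ends at 48 h. At 72 h the list averaged 8.915, 9.055 and 9.143 in the controls and 9.052, 9.024 and 9.091 in the anti-miR-135b samples. The controls on the first chip averaged 9.734 and 9.838 at 24 h and 9.287, 9.742 and 10.02 at 48 h.

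Splicing factors, proteasome subunits and heat shock proteins were lower in part. Of the 24 measured SR and hnRNP genes, 6 fell, 0 rose and 18 did not pass the test, with a median difference of -0.59 over the list. Leaving out samples 11, 12, 16, 17 and 18 in turn gave 2, 0, 2, 2 and 3 falls. The splicing factor Srsf1 fell by 1.66 (SE 0.33), Hnrnpk by 1.52 (SE 0.40), Hnrnpab by 1.35 (SE 0.26) and Hnrnpu by 0.90 (SE 0.24). Of 28 proteasome genes, Psmc2 (-1.15) and Psmb7 (-0.90) passed, although the list's median was -0.62. Of 12 cytosolic heat shock genes, Hsp90aa1 (-1.24) and Hspa4 (-0.84) fell, as did the small heat shock gene Hspb8. Chaperones of the endoplasmic reticulum had no call among 22, with Hspa5, the chaperone BiP, at -0.91 (SE 0.29, limma adjusted p = 0.058) and Calr, calreticulin, at -1.38 (SE 0.52, limma adjusted p = 0.11). At an unadjusted p under 0.05 in limma, 8 of these 22 differed, against 2965 of all 12848 probes.

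Some immediate early genes and p53 targets fell. Of the 19 measured AP-1 and immediate early genes, 5 fell, 0 rose and 14 did not pass the test, with a median difference of -0.21 over the list. The falls numbered 5, 1, 4, 4 and 6 with samples 11, 12, 16, 17 and 18 left out in turn. Egr1, a zinc finger factor induced by growth signals, fell by 1.96 (SE 0.34), the phosphatase gene Dusp1 by 1.42 (SE 0.30) and Klf6 by 2.41 (SE 0.35). Of the 21 measured p53 targets, 5 fell, 0 rose and 16 did not pass the test, with a median difference of -0.48 over the list. With samples 11, 12, 16, 17 and 18 left out in turn, there were 2, 0, 1, 2 and 5 falls. Rises of p53 targets, 0 here, numbered 2 with the filter at the 75th percentile and 3 with array weights, and fits on fewer samples called 1 in each list. The cell cycle inhibitor Cdkn1a, or p21, measured 13.73 and 13.56 at 24 h and 12.29, 12.56 and 12.82 at 72 h, a difference of -1.09 (SE 0.26, limma adjusted p = 0.018). Its highest 72 h sample lay below both 24 h samples. The p53 ligase Mdm2 fell by 1.38 (SE 0.37), the kinase Plk2 by 1.70 (SE 0.25) and Trp53inp1 by 1.61 (SE 0.40). In the control, 1 immediate early gene fell, Klf6 (-1.55), and no p53 target passed in limma (6 of 21 at an unadjusted p under 0.05).

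Some genes induced by low oxygen rose. Of the 19 measured HIF1 and hypoxia targets, 0 fell, 7 rose and 12 did not pass the test, with a median difference of 1.13 over the list. When samples 11, 12, 16, 17 and 18 were left out in turn, 6, 0, 3, 7 and 6 rises were called. Car12, a carbonic anhydrase of the cell surface, measured 8.66 and 8.45 at 24 h and 11.54, 10.96 and 10.72 at 72 h, a difference of 2.52 (SE 0.43, limma adjusted p = 0.0028), or 5.73-fold. Its relative Car9, a classical HIF1 target, measured 7.77 and 7.36 at 24 h and 10.23, 9.56 and 9.34 at 72 h, a difference of 2.15 (SE 0.47, limma adjusted p = 0.01). A dimmer probe for Car9 differed by 0.65 and did not pass. The 72 h samples of both genes lay above the 24 h samples. Pgf, the placental growth factor, measured 9.35 and 8.35 at 24 h and 11.79, 10.53 and 11.05 at 72 h, a difference of 2.28 (SE 0.43, limma adjusted p = 0.0049). Selenbp1, a selenium-binding enzyme, rose by 2.47 (SE 0.69), Ndrg1 by 1.73 (SE 0.38) and Egln3, an oxygen-sensing hydroxylase, by 1.13 (SE 0.33). Vegfa, which encodes the main angiogenic factor under HIF1, differed by 0.76 (SE 0.41, limma adjusted p = 0.29) and did not pass. No member passed in limma in the control from 24 to 48 h (5 of 19 at an unadjusted p under 0.05), where the median was 0.49. The 72 h controls measured 12.15, 11.37 and 10.61 for Car12, around the inhibitor samples.

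The Car9 promoter (chr4:43506776-43507075, plus strand, RefSeq, GRCm38.p6) is shown for its match to the hypoxia response element TACGTG, searched on both strands, 18 bases before the start, in capitals. Of the 6 risen members with a promoter sequence 2 held it, as did 4 of the 15 measured members with a promoter sequence (26.7%) and 3.15% of all promoters.
Car9 promoter: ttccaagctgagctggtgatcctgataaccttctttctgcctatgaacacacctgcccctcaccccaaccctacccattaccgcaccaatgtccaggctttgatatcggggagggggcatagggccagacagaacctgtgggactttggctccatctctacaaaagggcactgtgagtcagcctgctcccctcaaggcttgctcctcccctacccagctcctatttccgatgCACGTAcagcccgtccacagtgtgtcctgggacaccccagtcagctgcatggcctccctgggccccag

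Some genes of energy metabolism rose. Of the 17 measured glycolytic genes, 0 fell, 5 rose and 12 did not pass the test, with a median difference of 0.77 over the list. Leaving out samples 11, 12, 16, 17 and 18 in turn gave 4, 0, 2, 3 and 2 rises. Ldha, which makes lactate, measured 13.71 and 12.93 at 24 h and 14.71, 14.87 and 14.58 at 72 h, a difference of 1.40 (SE 0.26, limma adjusted p = 0.0044). Aldoa rose by 1.80, Pfkm by 1.22, Tpi1 by 1.17 and Pdk1, the kinase that holds pyruvate out of the mitochondrion, by 1.00 (SE 0.34, 0.35, 0.32 and 0.30). Of the 59 measured subunits of the respiratory chain and ATP synthase, 0 fell, 13 rose and 46 did not pass the test, with a median difference of 0.48 over the list. The calls were spread over the complexes, with Ndufa7 of complex I at 1.39 (SE 0.24), Sdhc of complex II at 1.14 (SE 0.31) and Uqcrh of complex III at 1.09 (SE 0.25). Cox7b of complex IV differed by 0.97 (SE 0.27) and Atp5j2 of ATP synthase by 1.12 (SE 0.19). The rises numbered 2, 0, 2, 8 and 8 with samples 11, 12, 16, 17 and 18 left out in turn. Array weights, the filter at the 75th percentile, fits on fewer samples, uncorrected intensities and the values normalized by the authors each called 2 subunits lower as well. Of the ribosomal proteins, 5 of 53 cytosolic and 4 of 66 mitochondrial ones rose and 0 fell, which is 9.43% and 6.06%, with medians of 0.31 and 0.14. The mitochondrial share lies near the background of 4.54%. For the cytosolic proteins, 1, 0, 1, 3 and 2, and for the mitochondrial ones 2, 0, 1, 3 and 3, were called higher without samples 11, 12, 16, 17 and 18 in turn. Among those that rose were Rpl22 (1.56) and Mrps16 (1.12).

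**Figure D3:**
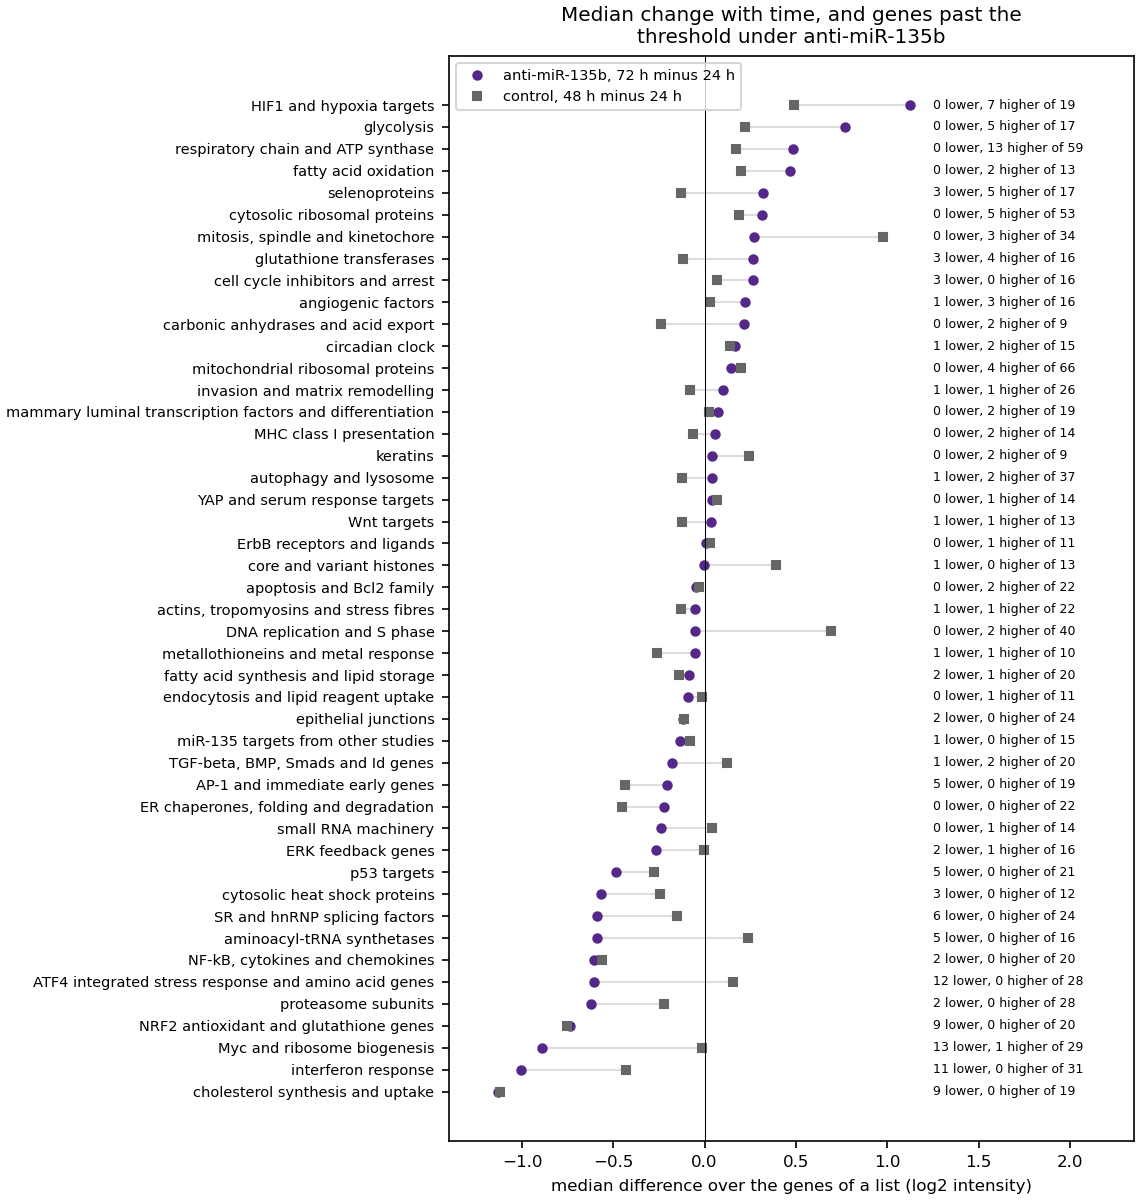
Median log2 difference over each gene list (x axis) from 24 to 72 h under anti-miR-135b (purple circles) and from 24 to 48 h in the control (grey squares), with the counts of genes past the threshold under anti-miR-135b at the right. Cholesterol and NRF2 genes have medians of -1.13 and -0.74 under anti-miR-135b and -1.12 and -0.75 in the control, whereas the ATF4, synthetase and ribosome biogenesis lists lie at -0.61, -0.59 and -0.89 under anti-miR-135b and at 0.15, 0.23 and -0.01 in the control, and the S phase and mitosis lists lie higher in the control. The comparisons differ in interval and chip as well as in arm, and the 72 h controls are not shown.

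Cell cycle genes rose more often in the control to 48 h than under anti-miR-135b to 72 h, and the interval differs with the arm. Of 40 genes of DNA replication and S phase, 2 rose under anti-miR-135b (5%, near the background of 4.54%), with a median of -0.05. From 24 to 48 h in the control 7 rose, with a median of 0.69. At 48 h, on the first chip, the list averaged 10.04, 9.909 and 9.832 in the anti-miR-135b samples and 9.922, 9.857 and 9.809 in the controls. At 72 h, on the second chip, it averaged 8.824, 9.085 and 9.055 under anti-miR-135b and 8.702, 8.643 and 9.036 in the controls. Of 34 mitotic genes, 3 (8.82%) and 10 rose, with medians of 0.27 and 0.98. Their averages at 48 h were 9.878, 9.867 and 9.541 under anti-miR-135b and 9.918, 9.951 and 9.638 in the controls. At 72 h they were 9.122, 9.071 and 9.006 under anti-miR-135b and 9.14, 8.844 and 9.001 in the controls. Without samples 16, 17 and 18 in turn, 1, 0 and 1 S phase genes and 1, 2 and 2 mitotic genes rose under anti-miR-135b. Without samples 11 and 12 in turn, which leaves 1 sample at 24 h, the S phase medians were -0.15 and -0.20. The mitotic medians were then 0.38 and 0.17. Tk1, thymidine kinase, measured 9.72 and 8.77 at 24 h and 11.18, 11.38 and 10.56 at 72 h, a difference of 1.80 (SE 0.49, limma adjusted p = 0.032). Rfc2, a clamp loader subunit, rose by 0.96 (SE 0.24). Of the mitotic genes, the centromeric histone Cenpa rose by 1.50 (SE 0.32), Kif22 by 1.00 (SE 0.24) and the spindle bundler Prc1 by 0.89 (SE 0.27). All 3 passed in the control as well, at 1.43, 1.49 and 1.79.

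Few members of the differentiation, clock and signalling lists were called, and those named here are called members. Of 9 keratins 2 rose, of 19 luminal genes 2 rose, and of 15 clock genes 2 rose and 1 fell. Of 20 TGF-beta, BMP, Smad and Id genes 2 rose and 1 fell. Of 26 invasion and matrix genes and of 10 metal response genes, 1 rose and 1 fell in each list. Krt18 measured 12.57 and 12.60 at 24 h and 14.16, 13.72 and 13.87 at 72 h, a difference of 1.33 (SE 0.23, limma adjusted p = 0.0029), and its partner Krt8 differed by 0.98 (SE 0.19, limma adjusted p = 0.0057). Krt18 and Krt8 were each higher in every 72 h sample than in either 24 h sample, and the other 7 of 9 keratins did not pass. The surface mucin gene Muc1 rose by 1.25 (SE 0.34) and the epithelial factor Elf3 by 0.95 (SE 0.23), though another Elf3 probe had the opposite sign. The clock output gene Tef rose like Dbp, by 1.59 (SE 0.36), and the clock repressor gene Ciart fell by 1.30 (SE 0.27). Grb7, an adaptor of ErbB receptors, rose by 1.41 (SE 0.31), the only call among 11 ErbB receptor and ligand genes. Id1, an inhibitor of differentiation under BMP signals, rose by 1.57 (SE 0.47) and Smad2 fell by 1.07 (SE 0.23). Tfrc, the transferrin receptor, rose by 1.28 (SE 0.35), and Slc40a1, the iron exporter ferroportin, fell by 1.49 (SE 0.42). The collagenase gene Mmp13 fell by 1.43 (SE 0.28) and the integrin gene Itgb6 rose by 0.92 (SE 0.26). Some of these calls depended on the processing and samples. Id1 kept its call in 8 of 16 alternatives, Slc40a1 in 9 of 16, Tfrc in 10 of 16 and Itgb6 in 7 of 15, whereas Krt8 and Krt18 each kept theirs in 15 of 16. Of 8 mesenchymal genes none passed in limma, with 0 at an unadjusted p under 0.05.

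**Figure D4:**
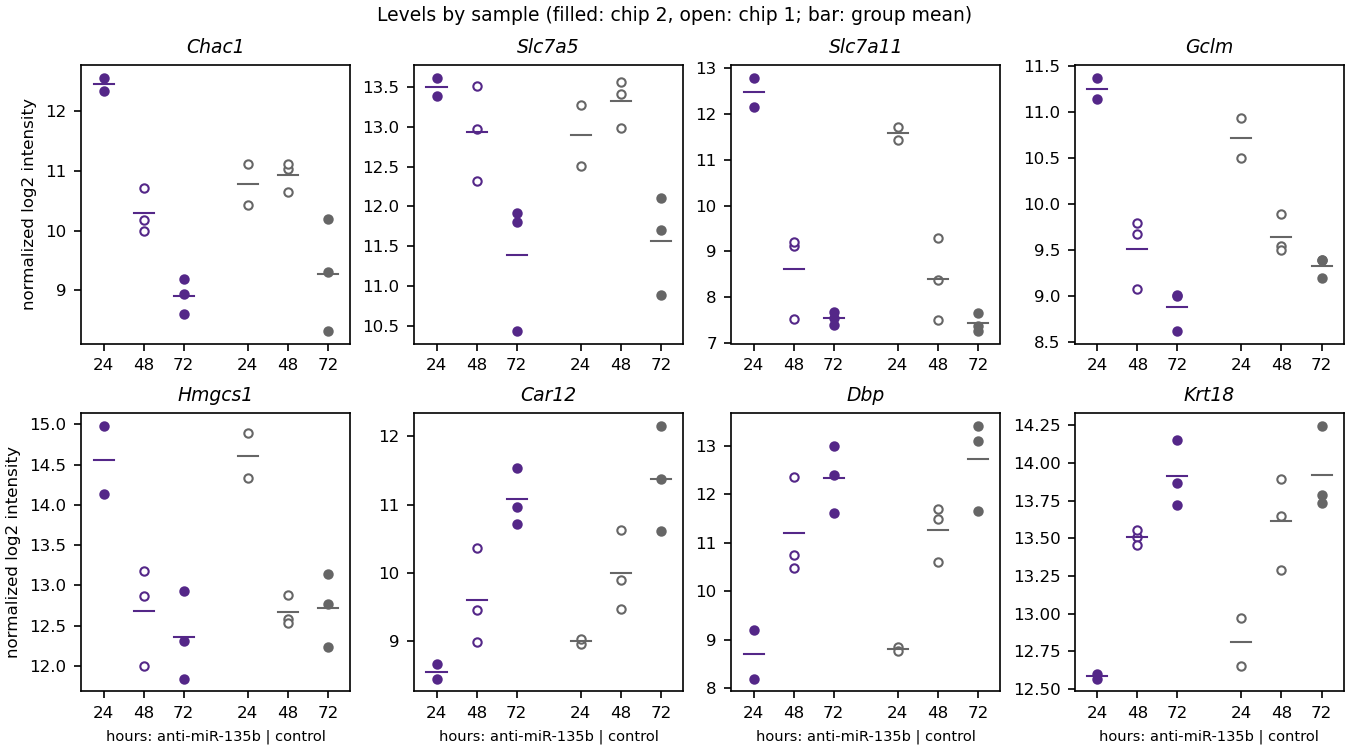
Normalized log2 intensity (y axis, not from 0) of 8 genes in every sample against hours after transfection, for anti-miR-135b (purple) and control (grey), with filled points on the second chip, open points on the first and a bar at the group mean. The control samples of Chac1 and Slc7a5 overlap between 24 and 48 h, while Slc7a11, Gclm and Hmgcs1 are low by 48 h in both arms.

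The genes the study names as miR-135b targets did not pass with time. Mid1, a microtubule-associated ubiquitin ligase, measured 7.68 and 7.66 at 24 h and 8.24, 8.06 and 7.08 at 72 h, a difference of 0.12 (SE 0.28, limma adjusted p = 0.85). In the control it differed by -1.37 (SE 0.28, limma adjusted p = 0.024). The difference between these changes was 1.49 (SE 0.39, limma adjusted p = 0.24), so it did not pass. Mtch2, which encodes a receptor on the mitochondrial surface, differed by -0.49, -0.46 and -0.34 by its 3 probes, with no call. Of 15 genes reported as miR-135 targets in other studies, 1 fell, the deacetylase gene Sirt1 (-0.85, SE 0.25, limma adjusted p = 0.044), and none rose, with a median of -0.14. Sirt1 lost its call whichever of the 5 samples was left out.

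The difference between the anti-miR-135b change to 72 h and the control change to 48 h was itself tested. In this test arm, interval and chip cannot be told apart. Of 12848 probes, 1 passed (0.00778%), with 1185 at an unadjusted p under 0.05. It was Chac1, with a difference of -3.70 (SE 0.55, limma adjusted p = 0.034): its mean went from 12.45 ± 0.16 (SD, n = 2) to 8.91 ± 0.29 (SD, n = 3) under anti-miR-135b. In the control it went from 10.78 ± 0.48 (SD, n = 2) to 10.93 ± 0.25 (SD, n = 3), and the 72 h controls averaged 9.27 ± 0.94 (SD, n = 3). The call was lost without 7 of the 10 samples, each left out in turn, namely anti-miR-135b samples 11, 12, 16, 17 and 18 and control samples 3 and 5, with differences of -3.84 to -3.36. Its limma adjusted p was 0.051 with an offset of 16 and also with the filter at the 75th percentile, and 0.0017 to 0.045 in the other settings that kept all samples. The smallest p in the higher direction belonged to Csrp1, a LIM domain protein of the cytoskeleton (1.65, SE 0.31, limma adjusted p = 0.11), Gstt1 (1.42, SE 0.30) and the lipase gene Mgll (1.73, SE 0.38). At an unadjusted p under 0.05, 13 of 28 ATF4 genes, 10 of 16 synthetases and 18 of 40 S phase genes differed, against 9.44% of all genes, and 0 of 19 cholesterol genes. These counts are not adjusted for the number of genes.

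At 72 h, the anti-miR-135b and control samples of the same chip were compared directly. No probe passed in limma (0%), with 916 at an unadjusted p under 0.05 and a smallest adjusted p of 0.14. The ATF4 list had a median difference between the arms of -0.08, the NRF2 list -0.04, cholesterol genes -0.10, interferon genes 0.29 and HIF1 targets -0.28, against -0.01 over all genes. Slc7a11 differed by 0.11 (SE 0.41), Chac1 by -0.36 (SE 0.35) and Dbp by -0.39 (SE 0.50). The largest changes with time under anti-miR-135b were therefore not matched by called differences from the control at the end of the course. This comparison shares the 72 h anti-miR-135b samples with the time comparison.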

How the data were processed

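As deposited, the main table gives an intensity per probe, averaged over beads and not normalized between arrays, for 25697 probes and 16 arrays; it came from GenomeStudio per the submitters' processing notes (version not given in the sources used here). A second deposited table, with log2 values that the authors had normalized in a way not stated, served as an alternative only. Neither file came with detection p-values or control probes, and the number of arrays limits the precision.

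Intensities were background-corrected with normexp (saddle method, offset 50) and quantile normalized on the log2 scale in limma 3.58.1 (R 4.3.3). Probes with a 16-array mean above the median of all probes (7.10) were kept, 12848 for 9032 named genes. Names came from the platform annotation, which gives 23978 probes 1 symbol, 1719 none and 0 several, and the RefSeq gene table held 23962 of them. The model (lmFit, eBayes) had 1 mean per group over the 6 groups and all 16 arrays. Contrasts were anti-miR-135b at 72 h minus 24 h, control at 48 h minus 24 h, the difference of these, and anti-miR-135b minus control at 72 h. P-values are two-sided and adjusted by Benjamini-Hochberg within a contrast, with a threshold of 0.05. A fitted difference of a dim gene depends on the background and offset: 50 of the 1025 called probes had a lower group mean below 7.10. The steps were tested on simulated data.

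The samples, the 48 gene lists and the tests were chosen with earlier results of these data known. A gene of a list is read by its brightest kept probe. Named are the 12 largest called differences per direction with groups that do not overlap, up to 4 called members of a list by smallest p (or 2 where none passed), Mid1, Mtch2, and the leading genes of the difference of changes. Further called members of the larger lists, and Asns, Trib3, Ddit3 and Vegfa, were named after their values were seen. Alternatives were no background correction, an offset of 16, median scaling, the authors' value table, no filter and a filter at the 75th percentile, array weights, eBayes with trend and robust, probes averaged per gene, fits on fewer samples, and each sample left out.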

Additional observations from a re-analysis of the deposited data

Results flagged for a closer look

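Chac1, the enzyme that degrades glutathione, was flagged because its change with time differed between the arms by a test of the difference itself. The anti-miR-135b change between 24 and 72 h minus the control change between 24 and 48 h was -3.7 on the log2 scale (limma adjusted p = 0.034). Arm, interval and chip cannot be told apart in this difference, and the call was lost without 7 of the 10 samples left out in turn (limma adjusted p of 0.053 to 0.37 for those 7).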

How the results depend on the processing

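No paired analysis was possible because the groups compared share no replicate number. Of 1025 probes called from 24 to 72 h under anti-miR-135b (540 higher, 485 lower), median scaling called 377 (183 higher, 194 lower), 373 of them among the 1025, and array weights, whose fit did not fully converge, gave 2178 (1110 higher, 1068 lower). Fits on the groups compared and on the second chip alone gave 782 and 744 lower probes. Leaving out single samples gave 25 to 677 probes, 12 to 357 higher and 13 to 320 lower. The share of higher probes among the calls was 48.0% to 57.1% over all settings. Of 128 called probes of genes chosen by the naming rule, 71 kept their call with median scaling, 13 without sample 12 at 24 h and 75 to 100 without the others, and 0 changed sign in any setting run. The 13 included Slc7a11, Chac1, Atf3, Gclm, Sqstm1, Hmgcs1, Hsd17b7, Gsta3, Gsta1, Gstt1, Selenoh and Chst1. The control count of 119 became 1267 with median scaling, 352 with array weights and 17 in a fit on the groups compared, and 19 to 119 without single samples. For the difference of the changes (1 probe), no background correction gave 5, the offset of 16 gave 0, median scaling 3 (with a median of -0.37 over all probes), the authors' values gave 7, the 75th percentile filter 0 and array weights 130, and leaving out single samples gave 0 to 5. Between the arms at 72 h (0 probes), alternatives chosen after seeing the data gave 2 with no background correction, 2 with the authors' value table and 2 with array weights, and leaving out single samples gave 0 to 1. The causes were not tested. Dim probes limit what can be seen: 50 called probes had a group mean below the filter value.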
